A study of Mus musculus with 8 samples.

Results

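The 38 mouse genes described here encode the enzymes and regulators of antioxidant defence. They were chosen by name from the known biology of the pathway, with earlier results of these data known. Each one was matched to the row with the same gene symbol in the deposited tables. All 38 were found among the 26608 genes listed, and all 38 had at least 1 count somewhere in the 8 libraries. They were followed across the 2 factors of the study, the metabolic state of the dam and the region of the neural tube, in FVB mouse embryos at embryonic day 8.5. The 4 groups, each of 2 libraries, were open neural tube from normal dams (libraries 09 and 10), closed neural tube from normal dams (11 and 12), open neural tube from diabetic dams (13 and 14) and closed neural tube from diabetic dams (15 and 16). The tissue was laser-microdissected from frozen sections on either side of the anterior limit of closure site 1, the first place where the neural folds meet. The open samples lay just in front of it and the closed samples just behind it. The strain, the embryonic day, the dissection and the library kit were shared by all groups. The labels did not say how the dams became diabetic, how many embryos entered a library, or whether the 2 libraries of a group came from separate litters, so every p-value below measures only the spread between these libraries, part of which may be technical.

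Respiration and oxidases leave superoxide in every cell. Superoxide dismutases turn it into hydrogen peroxide, and catalase, the glutathione peroxidases and the peroxiredoxins remove the peroxide. The peroxidases are recharged by glutathione and by thioredoxin, which are in turn kept reduced by glutathione reductase and thioredoxin reductase. Glutathione is made by glutamate-cysteine ligase, a catalytic and a modifier subunit, followed by glutathione synthetase. Many of these genes are switched on by the transcription factor Nrf2 (Nfe2l2), which Keap1 holds at a low level until oxidants modify it. In the embryo of a diabetic dam, excess glucose is widely held to raise oxidant load at the time the neural tube closes, which is the background against which the 2 dam states were compared for these genes.

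The assay was SOLiD SAGE, which counts 1 short tag beside a CATG near the 3′ end of each transcript. A count is thus a count of transcripts and does not grow with transcript length, but it depends on whether the tag is present and unique. The sequences below were read from GENCODE M21 transcripts on the GRCm38 build, a later build than the mm9 used upstream. Each starts at the CATG nearest the 3′ end of the longest coding transcript, shown in capitals, and runs for 27 bases. The first 6 are of genes on which the comparisons below turn, and the last 2, with that of Gpx4, are tags that another locus shares.
Prdx1: CATGgaacagaatttttgcttcttagg
Txnrd1: CATGtatttttattacaatttttctgg
Gpx1: CATGatggtgtttcctctaaatttgca
Gpx4: CATGaaggtctgcctgaaaaccagcct
Gsta4: CATGtatgcagatggcacccaggacct
Gclc: CATGaaatgcactaatttttgtgaatc
Gstp1: CATGtgaaccgtcccatcaatggcaat
Glrx2: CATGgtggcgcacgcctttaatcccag

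On GRCm38 the Prdx1 tag lay at chr4:116700746-116700772 (plus strand), the Txnrd1 tag at chr10:82897650-82897676 (plus), the Gpx1 tag at chr9:108340193-108340219 (plus) and the Gpx4 tag at chr10:80056293-80056319 (plus). The Gsta4 tag lay at chr9:78205918-78205944 (plus), the Gclc tag at chr9:77794130-77794156 (plus), the Gstp1 tag at chr19:4035485-4035511 (minus) and the Glrx2 tag at chr1:143749504-143749530 (plus). All 8 were exonic. Those of Gsta4 and Gstp1 lay in coding sequence and the other 6 in the 3′ untranslated region. Of the 38 genes, 35 had a full tag, 29 of them in the 3′ untranslated region and 6 in coding sequence. The tag of 4 genes also occurred in another gene: that of Sod2 in 1 (Gm26909), that of Gpx4 in 1 (the pseudogene Gpx4-ps2), that of Gstp1 in 2 (Gstp2 and Gstp-ps) and that of Glrx2 in 21, so the counts of these 4 genes are uncertain. In Srxn1, Txn1 and Nfe2l2 the last CATG lay only 15, 8 and 14 bases from the transcript end. None of these had a full tag, so what their counts measure is uncertain too. Coding isoforms gave more than 1 distinct tag for 18 genes. How the authors assigned ambiguous tags was not given in the sources used here.

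Library totals ran from 5041586 counts (library 15) to 16655583 (library 13), and the 38 genes took 0.357% to 0.439% of each total. Levels are given as CPM, counts scaled to a common library total after TMM adjustment, and 3 counts, the limit that a count of 0 allows, correspond to 0.18 to 0.595 CPM. The 2 libraries of an open group often disagreed on which genes were counted: of 9490 genes with at least 50 counts in library 13, 1129 (11.9%) were at 0 in library 14, and of the genes at that level in library 09, 6.44% were at 0 in library 10. Library 13 also stood apart in its tissue markers, with the neural progenitor gene Sox2 at 30.2 CPM against 276 to 559 CPM in the other 7 libraries and the mesodermal gene Pdgfra at 465 CPM against 30.4 to 158 CPM. Xist, the transcript of the inactive X chromosome, was at 301 and 297 CPM of the library total in libraries 10 and 12, both from normal dams, and at 0.0987 to 4.27 CPM in the other 6. The Y-linked Ddx3y was at 0.882 and 0.444 CPM in those 2 libraries and at 188 to 274 CPM elsewhere. All libraries of diabetic dams thus had the male pattern, so sex and dam state were partly confounded. The models had no term for sex, and some values without libraries 10 and 12 are given below. Neural progenitor markers (9 of 10 with a count, Nkx6-1 at 0) summed to 176.8 CPM in library 13 and to 755 to 1373 CPM elsewhere.

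The 38 genes spanned a wide range of levels. Prdx1 (788.8 CPM ± 89.5, SD, n = 8) and Txnrd1 (703.8 ± 146.5) were the most abundant, followed by Gpx3 (533.7 ± 128.5), Txn1 (298.7 ± 64.4), Glrx3 (288.1 ± 89.0) and Gpx4 (282.6 ± 84.9). These 6 supplied 70.3% of the summed level of all 38. Txn1 had no full tag, so its place among them is uncertain. In mean level, 11 genes were at 100 CPM or more, 14 lay between 10 and 100 CPM and 13 were under 10 CPM. Counts were found in all 8 libraries for 30 genes, while 8 were at 0 in at least 1 library. In 7 genes the highest library was less than 2 times the lowest.

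**Figure D1:**
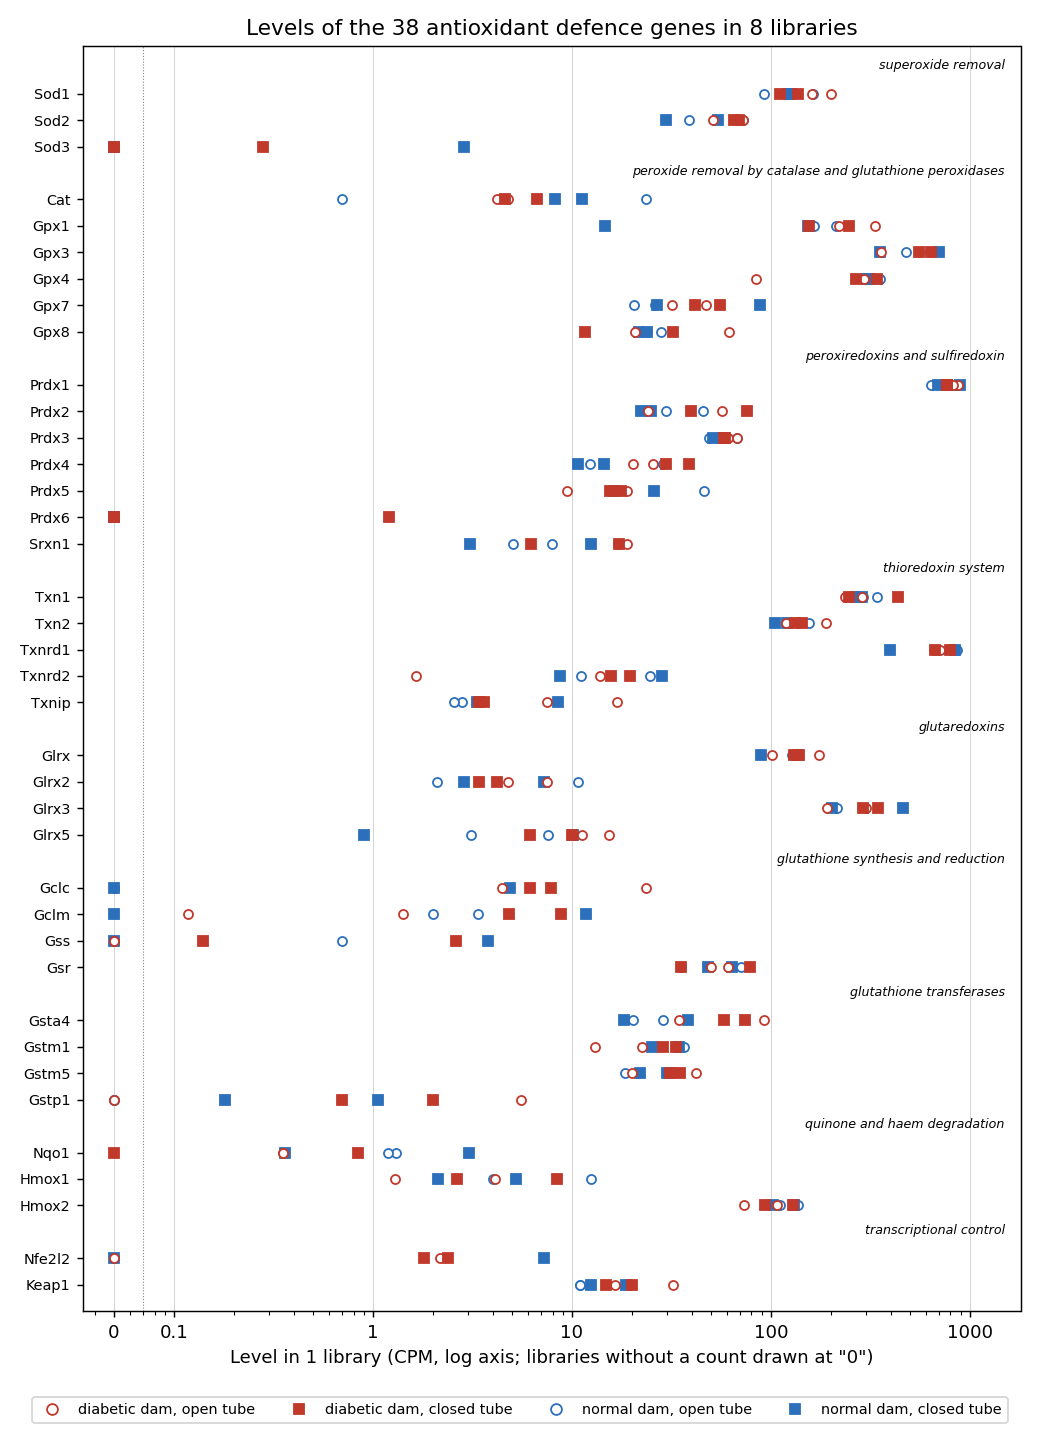
Level of each of the 38 genes in each of the 8 libraries, in CPM on a log axis, ordered by role; libraries without a count are drawn at 0. Prdx1 and Txnrd1 lie at the right, 13 genes have a mean under 10 CPM, and single libraries stand off to the left for Gpx1 (library 12) and Gpx4 (library 14).

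Superoxide removal rested on Sod1, the copper-zinc enzyme of the cytosol, and Sod2, the manganese enzyme of mitochondria. Sod1 was at 92.5 and 163 CPM in normal open tissue, 123 and 126 in normal closed, 201 and 161 in diabetic open and 136 and 111 in diabetic closed. Sod2 was at 72.2 and 38.7 CPM in normal open tissue, 54.2 and 29.6 in normal closed, 51.4 and 72.6 in diabetic open and 65.5 and 69.6 in diabetic closed. For both genes the ranges of the diabetic and normal libraries overlapped. Sod3, the secreted enzyme, had 21 counts in all, from library 12 (2.88 CPM) and library 16 (0.28 CPM) alone, and did not pass the filter on low counts.

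Among the enzymes that break down peroxide, the secreted Gpx3 was highest, at 355 to 697 CPM over the 8 libraries. Gpx1, the cytosolic glutathione peroxidase, was at 166 and 213 CPM in normal open tissue, 154 and 14.7 in normal closed, 220 and 333 in diabetic open and 248 and 155 in diabetic closed. Library 12 lay about an order of magnitude under the rest, and the other 7 lay between 154 and 333 CPM. Gpx4, which reduces lipid peroxides in membranes, was at 355 and 298 CPM in normal open tissue, 312 and 304 in normal closed, 296 and 83.9 in diabetic open and 269 and 344 in diabetic closed. Here library 14 was the low one, and the remaining 7 lay between 269 and 355 CPM. Gpx7 and Gpx8, which act in the endoplasmic reticulum, ran from 20.6 to 88.8 CPM and from 11.7 to 61.5 CPM. Catalase (Cat), the peroxisomal enzyme, was scarce: 0.70 and 23.6 CPM in normal open tissue, 11.3 and 8.20 in normal closed, 4.76 and 4.22 in diabetic open and 6.65 and 4.61 in diabetic closed. Its lowest and highest libraries were the 2 of normal open tissue.

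The peroxiredoxins use thioredoxin to remove peroxide. The cytosolic Prdx1 stayed between 636 and 892 CPM in all 8 libraries, and the mitochondrial Prdx3 between 48.9 and 67.7 CPM. Prdx2, a cytosolic form abundant in red cells, was at 29.7 and 45.8 CPM in normal open tissue, 22.3 and 25.1 in normal closed, 57.0 and 24.3 in diabetic open and 75.8 and 39.5 in diabetic closed. Prdx4, of the secretory pathway, was at 12.4 and 28.7 CPM in normal open tissue, 10.7 and 14.6 in normal closed, 20.3 and 25.6 in diabetic open and 38.9 and 29.9 in diabetic closed. In closed tissue both diabetic libraries exceeded both normal libraries for Prdx2 and for Prdx4, as in 18% of all genes tested. In open tissue the libraries of the dam states overlapped for both genes. Prdx5, of mitochondria and peroxisomes, ran from 9.50 to 46.3 CPM. Prdx6 had 6 counts, all in library 15. Srxn1, sulfiredoxin, which restores over-oxidised peroxiredoxins, ran from 3.08 to 18.9 CPM.

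In the thioredoxin system, the cytosolic reductase Txnrd1 was at 868 and 690 CPM in normal open tissue, 397 and 840 in normal closed, 706 and 663 in diabetic open and 794 and 673 in diabetic closed. Only library 11 was under 663 CPM. Cytosolic thioredoxin (Txn1) ran from 235 to 436 CPM, mitochondrial thioredoxin (Txn2) from 105 to 190 CPM and mitochondrial thioredoxin reductase (Txnrd2) from 1.64 to 28.5 CPM. Txnip, a thioredoxin-binding protein whose gene is induced by glucose in many cells, was scarce: 2.81 and 2.55 CPM in normal open tissue, 8.53 and 3.34 in normal closed, 7.52 and 16.9 in diabetic open and 3.43 and 3.63 in diabetic closed. Its 2 highest values came from libraries 14 and 11, 1 of each dam state. Among the glutaredoxins, Glrx3 ran from 192 to 460 CPM, Glrx from 89.3 to 175 CPM, the mitochondrial Glrx5 from 0.907 to 15.5 CPM and Glrx2 from 2.11 to 10.7 CPM.

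Glutathione reductase (Gsr) was counted at 35.3 to 78.2 CPM, whereas the enzymes of glutathione synthesis were sparse. Gclc, the catalytic subunit of glutamate-cysteine ligase, was at 0 and 0 CPM in normal open tissue, 4.90 and 0 in normal closed, 4.47 and 23.7 in diabetic open and 7.86 and 6.15 in diabetic closed. It was thus counted in all 4 diabetic libraries and in 1 of 4 normal libraries, and library 11 lay within the diabetic range. Gclm, the modifier subunit, was at 2.01 and 3.39 CPM in normal open tissue, 11.8 and 0 in normal closed, 1.41 and 0.12 in diabetic open and 4.84 and 8.80 in diabetic closed. Glutathione synthetase (Gss) was at 0 in 4 libraries and at most at 3.79 CPM.

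Of the glutathione transferases, which attach glutathione to lipid peroxidation products and foreign compounds, Gsta4 was at 28.6 and 20.4 CPM in normal open tissue, 18.3 and 38.6 in normal closed, 34.6 and 92.5 in diabetic open and 58.1 and 74.6 in diabetic closed. This enzyme is known for its preference for hydroxynonenal, a product of lipid peroxidation. Only libraries 12 and 13 overlapped between the dam states, at 38.6 and 34.6 CPM. Gstm5 ran from 18.5 to 42.1 CPM and Gstm1 from 13.1 to 36.5 CPM. Gstp1, whose tag is shared with 2 other loci, was at 0 in 3 libraries and at 5.58 CPM in library 13.

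Of the enzymes that act on quinones and haem, Nqo1, often taken as a marker of Nrf2 activity, had 57 counts in all and at most 3.04 CPM, and did not pass the filter. Hmox1, the inducible haem oxygenase, ran from 1.29 to 12.6 CPM, and the constitutive Hmox2 from 73.0 to 137 CPM. Nfe2l2 itself, which had no full tag, was at 0 in 4 libraries, and in library 11 it reached 7.26 CPM. Keap1 was at 11 CPM in both libraries of normal open tissue, 12.5 and 18.7 in normal closed, 32.4 and 16.5 in diabetic open and 19.96 and 14.9 in diabetic closed.

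**Figure D2:**
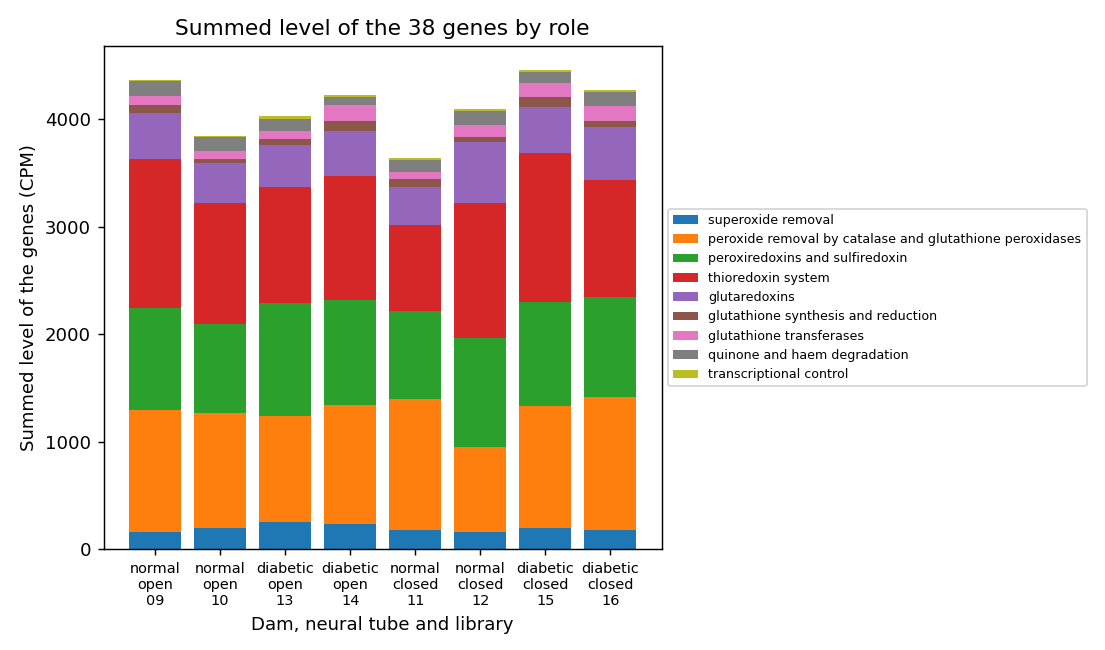
Summed level of the genes of each role in each library, in CPM, stacked in 1 bar per library. The 3 roles with the highest sums hold Txnrd1, Gpx3 and Prdx1, and the sum over all 38 genes stays between 3641 and 4458 CPM.

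The first comparison asked whether the diabetic state of the dam moved the defence genes in the neural tube. The sum over all 38 genes was 4247 CPM ± 174 (SD, n = 4) in the diabetic libraries and 3987 ± 315 (n = 4) in the normal libraries, and the ranges overlapped. The 4 glutathione transferases summed to 123.5 ± 36.1 against 82.4 ± 16.5 CPM, with overlap, and Gsta4 supplied most of the gap. The sums for superoxide removal were 217 ± 31.8 against 176 ± 18.9 CPM, also overlapping. In tissue cut from sections, fewer cells of a type and less RNA per cell cannot be told apart.

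In the model of dam and region over all 8 libraries, fitted with edgeR's quasi-likelihood test on the 11779 genes that passed the count filter, 35 of the 38 genes could be tested and 0 had an adjusted p under 0.05. The same was true of all genes tested (0%). At an unadjusted p under 0.05 there was 1 of the 35, Gsta4, where 4.55% of all genes tested passed. DESeq2 called 37 genes (0.314%) and limma-voom 0, and none of the 35 was among them. The fold change was above 0 for 24 of the 35 (68.6%), against 52.7% of all genes, and the median log2 fold change was 0.16 against 0.04. In 0 of the 35 did the 4 libraries of one dam state all lie above the 4 of the other, which happened in 2.3% of all genes with the diabetic side higher and 1.26% with it lower.

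Gsta4 had the smallest p of the 35: the means were 64.9 CPM ± 24.6 (SD, n = 4) in diabetic and 26.5 ± 9.21 (n = 4) in normal libraries, a log2 fold change of 1.30 (SE 0.39, 95% interval 0.44 to 2.15). Its edgeR adjusted p was 0.999, and an exact two-sided permutation test over the 8 libraries gave p = 0.0571 before any adjustment. Over both regions it was 1.52 without library 13, the one with few neural progenitor counts, and 0.95 to 1.56 with any single library left out. Within a region it rested more on single libraries. In open tissue it was 1.37 (SE 0.58), and 0.476 without library 14. In closed tissue it was 1.22 (SE 0.58), 0.815 without library 11 and 1.87 without library 12. Endothelial markers (11 of 11 with a count) summed to 80.6 to 345 CPM in the diabetic and 41.6 to 75.5 CPM in the normal libraries, without overlap. Single normal libraries had counts for 4 to 6 of the 11, and diabetic ones for 8 to 10. Egfl7 made up much of the normal sums, with 50.7 of 62.6 CPM in library 09 and 26.6 of 41.6 CPM in library 12. Of the 9 tested, 7 had a log2 fold change above 0 for diabetic against normal dams, with a median of 4.45. An unadjusted p under 0.05 by edgeR was met by 6 of the 9, and an adjusted p under 0.05 by 0. Paraxial mesoderm and mesenchyme markers (10 of 11 with a count, Msgn1 at 0) summed to 296 to 1790 CPM in the diabetic and 163 to 482 CPM in the normal libraries. All 9 of them that were tested had a log2 fold change above 0, with a median of 1.72, 5 had an unadjusted p under 0.05 and 0 an adjusted p under 0.05 by edgeR. The part of either cell type in the Gsta4 difference, or in the other dam differences given here, was not tested.

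The other members with the smallest p values were Gclc, Gpx1, Prdx4 and Prdx2. For none of them did the difference stand clear of the spread between libraries. Gclc averaged 10.54 CPM ± 8.88 in diabetic and 1.225 ± 2.449 in normal libraries (n = 4 each). Its log2 fold change was 4.46 (SE 2.33), 2.96 to 9.65 with any single library left out, and 2.46 without both libraries 10 and 12. These fitted Gclc values depend on how the model treats a count of 0. Gpx1 averaged 238.8 CPM ± 73.4 in diabetic and 137.1 ± 85.5 in normal libraries (n = 4 each). Its log2 fold change was 0.90 (SE 0.53), 0.48 without library 12 and 1.57 without library 11. Prdx4 averaged 28.7 ± 7.86 against 16.6 ± 8.22 CPM, a log2 fold change of 0.80 (SE 0.48). Prdx2 averaged 49.1 ± 22.2 against 30.7 ± 10.5 CPM, a log2 fold change of 0.69 (SE 0.42). Without library 10 the Prdx4 value was 1.23, and the Prdx2 value was 0.365 without library 15. All 4 had an edgeR adjusted p of 0.999. Of 10 blood markers, 8 had a count, with Hbb-y and Hba-a2 at 0. They summed to 4.43 to 993 CPM in diabetic and 2.58 to 64.4 CPM in normal libraries. In libraries 15 and 13, the highest for Prdx2, that sum was 4.43 and 906 CPM. In library 14, which had the highest sum (993 CPM), Prdx2 was at 24.3 CPM. Most of the sum was Hba-x, at 872.5 CPM in library 13 and 976.9 CPM in library 14. Of the 4 blood markers tested, 3 had a log2 fold change above 0 for diabetic against normal dams. The exception, Epor, had counts only in libraries 10, 11 and 12, all from normal dams. The part of blood in the Prdx2 values was not tested.

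For the most abundant genes the intervals were narrower, and each of them included 0. Prdx1 had a log2 fold change of 0.09 (SE 0.17, 95% interval -0.29 to 0.46) between diabetic and normal dams, and Txnrd1 of 0.03 (SE 0.24, -0.49 to 0.55). Gpx3 stood at 0.06 (SE 0.25), Txn1 at 0.01 (SE 0.23), Glrx3 at -0.05 (SE 0.27) and Gpx4 at -0.40 (SE 0.34). The Gpx4 value was -0.0566 without library 14, its low library, and -0.697 without library 13. These 95% intervals bound the diabetic level of Prdx1 and Txnrd1 well inside a doubling or a halving. Sod1 stood at 0.25 (SE 0.24), and at 0.0621 without library 09 and 0.141 without library 13. Sod2 stood at 0.42 (SE 0.32), at 0.22 without library 12 and at 0.694 without library 09, and at 0.0387 without both libraries 10 and 12.

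The scarce genes of the response had wide intervals. The log2 fold change for diabetic against normal dams was -1.11 (SE 1.00) for Cat, 1.03 (SE 0.72) for Srxn1, 0.72 (SE 1.12) for Txnip and -0.51 (SE 1.18) for Hmox1. It was -0.77 (SE 1.62) for Gclm, 1.97 (SE 3.03) for Nfe2l2 and 3.68 (SE 2.84) for Gstp1. Keap1, at 0.66 (SE 0.51), was somewhat better determined. Its value was 0.348 without library 13, its highest library, and 0.348 to 0.877 with any single library left out. With all 8 libraries, each of these genes had an edgeR adjusted p of 0.999.

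**Figure D3:**
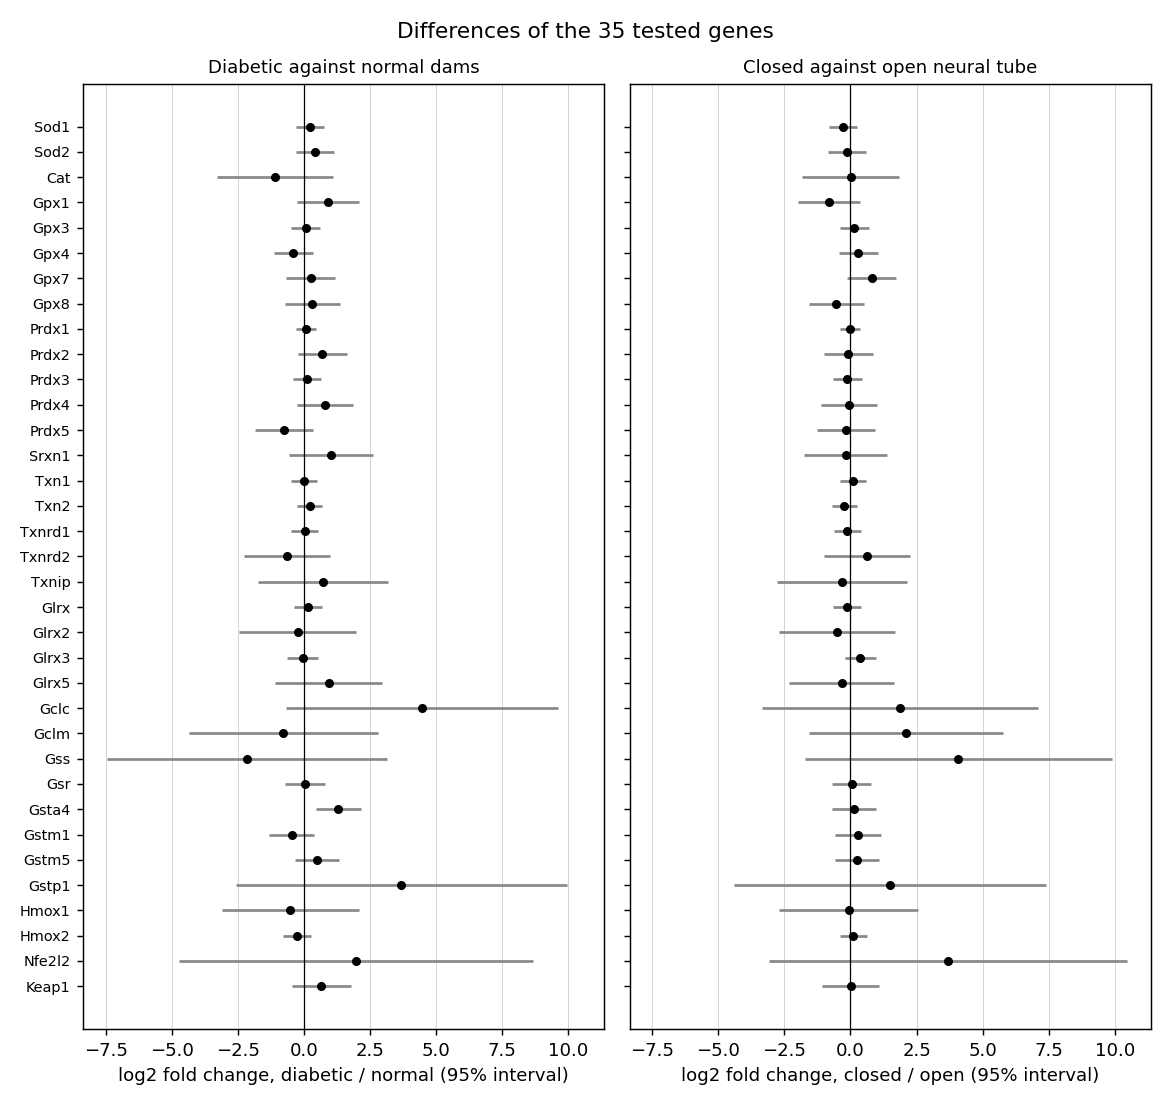
Fitted log2 fold change of each of the 35 tested genes with its 95% interval, for diabetic against normal dams and for closed against open tissue. For dam state the intervals of all genes but Gsta4 cross 0, and the narrowest is that of Prdx1.

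The second comparison, closed against open neural tube, asked whether the defence genes differ on the 2 sides of the closure point. The sum over the 38 genes was 4116 CPM ± 350 (SD, n = 4) in closed and 4118 ± 229 (n = 4) in open tissue. By edgeR 0 of the 35 had an adjusted p under 0.05 (0% of all genes tested), and 0 had an unadjusted p under 0.05, where 3.32% of all genes did. DESeq2 called 9 genes (0.0764%) and limma-voom 0, with none of the 35 among them. The fold change was above 0 for 18 of the 35 (51.4%), against 55.5% of all genes, and the median log2 fold change was 0.00 against 0.07. Complete separation of closed and open libraries occurred in 0 of the 35, against 1.89% of all genes with closed higher and 0.9% with closed lower.

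Gpx7 had the smallest p by region. It was at 20.6 and 26.3 CPM in normal open tissue, 26.7 and 88.8 in normal closed, 47.1 and 31.9 in diabetic open and 41.5 and 55.5 in diabetic closed. Closed tissue averaged 53.1 CPM ± 26.5 and open tissue 31.5 ± 11.4 (n = 4 each). The log2 fold change was 0.80 (SE 0.42), and 0.26 without library 12. Gpx1 went the other way at -0.81 (SE 0.53), and at -0.39 without library 12, so that one library carried much of both differences. Glrx3 was at 0.38 (SE 0.27), Gclm at 2.11 (SE 1.67) and Gss at 4.08 (SE 2.64). The edgeR adjusted p was 1.00 for all 5.

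Within normal dams, closed against open tissue, edgeR called 0 of the 35 (0% of all genes). At an unadjusted p under 0.05 there was 1, Gclc, against 3.4% of all genes; DESeq2 called 33 genes (0.304%) and limma-voom 0, with no gene of the 35 among them. Both closed libraries exceeded both open libraries in 5 of the 35 (15.9% of all genes), namely Gpx7, Txnip, Gstm5, Gstp1 and Keap1, and lay under them in 4 (12.6%). The fold change was above 0 for 17 of the 35 (52.2% of all genes), and the median log2 fold change was -0.03, against 0.04 over all genes. Gpx7 stood at 1.30 (SE 0.59, edgeR adjusted p = 1.00), and at 0.17 without library 12. Gclc and Nfe2l2 were at 0 in both open libraries and in library 12. Their pooled closed levels, 2.23 and 3.31 CPM, came from library 11 alone and were at least 11.8-fold and 17.5-fold higher than the level of 3 counts over the open group.

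Within diabetic dams, closed against open tissue, edgeR called 0 of the 35 (0% of all genes), and 0 had an unadjusted p under 0.05, against 2.78% of all genes. DESeq2 called 47 genes (0.472%) and limma-voom 1 (0.00849%), and none of the 35 was among them. Separation with closed higher was seen in 5 of the 35 (20.1% of all genes) and with closed lower in 6 (13.7%). The fold change was above 0 for 21 of the 35 (52.3% of all genes), with a median log2 fold change of 0.10 against 0.03. Sod1 was lower in closed tissue by a log2 fold change of -0.55 (SE 0.34) and Gstm1 higher by 0.79 (SE 0.54), both with an edgeR adjusted p of 1.00. Gss was at 0 in both open libraries. Its 14 counts in closed tissue were 13 in library 15 and 1 in library 16. Pooled, they put it at least 9.83-fold higher than 3 counts over the open group, a bound that rests almost wholly on library 15.

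In open tissue, diabetic against normal dams, edgeR again called 0 of the 35 (0% of all genes). At an unadjusted p under 0.05 there were 2 of the 35, Gclc and Gsta4, against 7.22% of all genes. DESeq2 called 199 genes (1.91%), with Gclc the 1 member among them, and limma-voom called 1 (0.00849%) and no member. Both diabetic libraries exceeded both normal libraries in 8 of the 35 (17% of all genes) and lay under them in 5 (15.4%). The fold change was above 0 for 21 of the 35 (51.1% of all genes), and its median on the log2 scale was 0.14 against 0.02.

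Gclc had the highest lower bound on a fold change among the genes at 0 in 1 group of open tissue. It had 0 counts in libraries 09 and 10, 76 in library 13 and 202 in library 14, so that the pooled diabetic level of 10.9 CPM was at least 57.5-fold higher than the 0.189 CPM of 3 counts over the normal group. The edgeR adjusted p was 0.631 and the DESeq2 adjusted p was 0.0146, and over all alternatives tried the adjusted p ran from 0.0146 to 0.736. This pattern, 0 in both normal open libraries with at least 50 counts in both diabetic open ones, was shared by 51 genes (0.433% of those tested), and the opposite pattern by 11 (0.0934%). Without library 13 the fitted log2 fold change was 10.4 and without library 14 it was 8.18, against 9.85 with both. These fitted values depend on how the model treats a count of 0. Gstp1 was likewise at 0 in both normal open libraries, and its 95 counts in diabetic open tissue all came from library 13.

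**Figure D4:**
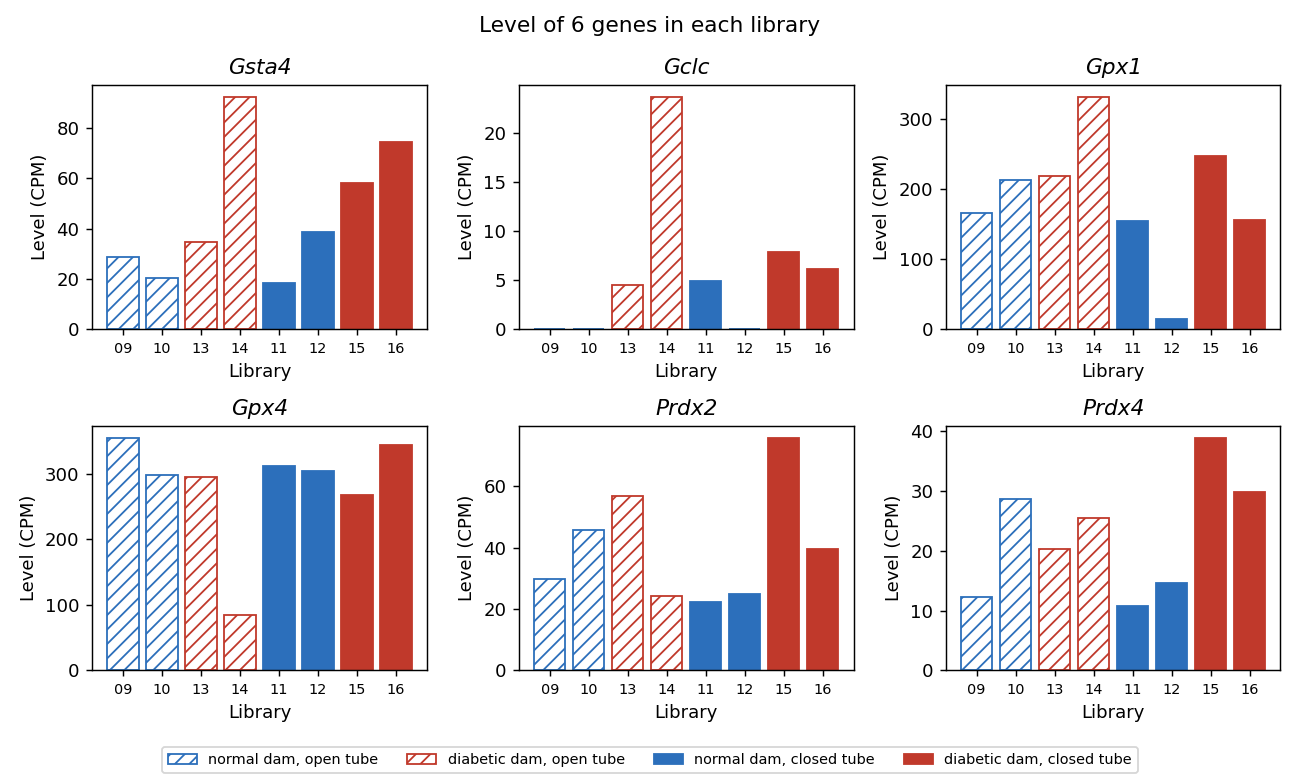
Level in each library, in CPM, of Gsta4, Gclc, Gpx1, Gpx4, Prdx2 and Prdx4; each bar is 1 library, open tissue is hatched and closed tissue filled. Gsta4 overlaps between dam states only through libraries 12 and 13, Gclc is at 0 in 3 of 4 normal libraries, and Gpx1 and Gpx4 each have 1 low library.

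In closed tissue, diabetic against normal dams, edgeR called 0 of the 35 (0% of all genes), and 1, Prdx2, had an unadjusted p under 0.05, against 1.17% of all genes. DESeq2 called 2 genes (0.017%) and limma-voom 0, with none of the 35 among them. Both diabetic libraries lay above both normal ones in 9 of the 35 (18% of all genes): Sod2, Gpx1, Prdx2, Prdx3, Prdx4, Txn2, Gclc, Gsta4 and Gstm5. The reverse held for 1 (13.3% of all genes), Cat. The fold change was above 0 for 21 of the 35 (51.7% of all genes), and the median log2 value was 0.16 against 0.03. Prdx2 stood at 1.28 (SE 0.57), Prdx4 at 1.44 (SE 0.65) and Gsta4 at 1.22 (SE 0.58), each with an edgeR adjusted p of 1.00. Without library 15 the Prdx2 value was 0.76.

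Whether the effect of the dam differed between open and closed tissue was tested as an interaction. By edgeR 0 of the 35 had an adjusted p under 0.05 (0% of all genes) and 1, Gclc, had an unadjusted p under 0.05, against 3.74% of all genes. DESeq2 called 22 genes (0.207%) and limma-voom 1 (0.00849%), with none of the 35 among them. The fitted interaction was above 0 for 19 of the 35 (50.7% of all genes). Gclc, Nfe2l2 and Txnip had the smallest p values, and all had an edgeR adjusted p of 1.00. For Txnip the interaction was -2.93 (SE 1.95): its diabetic open libraries exceeded the normal open ones, and its diabetic closed libraries, at 3.43 and 3.63 CPM, lay between the normal closed ones at 3.34 and 8.53 CPM. For the other 2 genes the fitted value rests on groups at 0 and is not given as a size.

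The wider pathway was read from 5 further lists. Of 20 other peroxide, thiol and metal defence genes, 15 could be tested, and the log2 fold change for diabetic against normal dams was above 0 in 6, with a median of -0.16. Sepw1 and Txnl1, a selenoprotein and a thioredoxin-like protein, were the most abundant of them, at 229 to 398 CPM and 177 to 317 CPM. Sepp1, a secreted selenium carrier, was at 4.32 and 0.17 CPM in normal open tissue, 27.8 and 4.10 in normal closed, 97.0 and 42.1 in diabetic open and 102 and 35.1 in diabetic closed. Every diabetic library thus exceeded every normal one, as in 2.3% of all genes tested. The log2 fold change was 3.44 (SE 0.96), with an unadjusted edgeR p of 0.0045 and an adjusted p of 0.999. An unadjusted p under 0.05 by dam was met by 4.55% of all genes. In the lists below it was met by Abcc4 and Mlxipl, both lower in diabetic libraries. By region it was met by Ugdh, lower in closed tissue, and Ncf1, higher there. Sepp1 was picked out after its values were seen. The metallothionein Mt1 and the sestrin Sesn2 were listed at 0 in all 8 libraries.

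Of 19 other glutathione transferases, 10 could be tested, 4 of them above 0 with a median of -0.07, and Gstz1 and Gsto1 led at 17.2 to 51.8 CPM and 6.89 to 29.4 CPM. Of 18 other known Nrf2 targets and genes of NADPH and iron handling, 15 could be tested, 7 above 0 with a median of -0.11. Their most abundant members were the ferritin heavy chain Fth1, at 443 to 828 CPM, and the transketolase Tkt, at 204 to 297 CPM. Of 16 other regulators, 13 could be tested, 4 above 0 with a median of -0.09, led by Rbx1, a subunit of the ubiquitin ligase that works with Keap1, and by the glucose-sensing partner Mlxip. Of 14 enzymes that make superoxide or peroxide, 6 could be tested, 3 above 0 with a median of 0.07, led by Rac1 and Cybb. No gene of these 5 lists had an edgeR adjusted p under 0.05 by dam or by region. The medians for closed against open tissue were 0.01, -0.37, 0.08, -0.08 and 0.07 in the same order.

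Because Nrf2 acts through the antioxidant response element, the promoters were searched for its core, TGACNNNGC, on both strands, from 250 bases before to 50 bases after each start in RefSeq on GRCm38.p6. Of the 32 genes matched to that table, 7 (21.9%) held it: Prdx1, Txnrd1, Gclm, Srxn1, Sod1, Gstm5 and Nfe2l2. Of all 27025 genes in the table, 13.99% did. Counted by start site, since some genes have several, 7 of 44 windows (15.9%) of these genes held it, against 12.4% of all windows. In Prdx1 (window chr4:116685349-116685648, plus strand) the match read TGACTCAGC, and in Txnrd1, where 1 of 3 windows matched (chr10:82858956-82859255, plus strand), it read TGACAAAGC. The 2 most abundant of the 38 genes were thus among those with a match, but Gpx3, Txn1, Glrx3 and Gpx4, the next in level, had none. Gclc, Gsta4 and Hmox1 were among the genes not matched to that table. A match describes these letters only and shows no binding.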

How the data were processed

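The 8 libraries were SOLiD SAGE libraries made from 7 ng of Trizol RNA each, per the labels' protocols. The deposited values are whole-number tag counts per gene symbol. The submitters' processing notes name mm9 as the genome build. Which aligner and counting rules were used, and the handling of ambiguous tags, was not given in the sources used here. Each library was placed in a group by its labels, 2 libraries per group. Genes were kept by filterByExpr (minimum count 10, minimum total 15), which left 11779. Counts were tested with edgeR 4.0.16 in R 4.3.3 (TMM scaling, quasi-likelihood F test, Benjamini-Hochberg adjustment over all tested genes, threshold 0.05), with dam and region as additive terms or with the 4 groups in a one-way layout. SEs were derived from the fold change and its F statistic. The code was tested on simulated counts. Alternatives were DESeq2 1.42.0, limma 3.58.1 (voom), other scalings and filters, and left-out libraries. A floor of 3 counts covers counting error only. The 38 genes, the other lists, and the rule for the genes given full statistics (the smallest p in each comparison, the 6 highest means, the 5 largest ratios of highest to lowest library, and core enzymes and regulators of the pathway) were chosen with earlier results of these data known.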

Additional observations from a re-analysis of the deposited data

Results flagged for a closer look

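For each tested gene, the highest and the lowest of the 4 libraries of a dam state or a region were set against the others. A gap above 0.829 of the range was met 13 times, in 9 genes, over 140 such groups. About 1 in 20 groups of 4 normally distributed values would pass that limit. That rate does not hold here, because CPM need not be normally distributed and the groups by dam and by region reuse the same libraries. A gene counted in only 1 library of a group passes the limit by construction. Library 12 was the highest normal library for Gpx7 (88.8 CPM, the next at 26.7) and for Gstp1 (1.06 CPM, the next at 0.181), and the lowest closed library for Glrx (89.3 CPM, the next at 130.2). Library 11 was the highest normal library for Txnip (8.53 CPM, the next at 3.34), which also made it the highest closed library (8.53 CPM, the next at 3.63). It was likewise highest among normal libraries for Gclc (4.9 CPM, the other 3 at 0) and Nfe2l2 (7.26 CPM, the other 3 at 0). Library 15 was the lowest diabetic library for Srxn1 (6.25 CPM, the next at 17.2) and the highest for Gss (2.62 CPM, the next at 0.14). Among open libraries, library 09 was highest for Gss (0.703 CPM, the others at 0), library 14 for Gstm5 (42.1 CPM, the next at 21.6), and library 13 for Gstp1 (5.58 CPM) and Nfe2l2 (2.17 CPM), with the other 3 at 0 for both.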

How the results depend on the processing

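Counts in libraries of this depth, with 2 libraries a group, limit the genes under 10 CPM most. The number of genes called, 0 in each comparison by edgeR, was 89 by dam, 29 by region, 22 by region in normal dams, 41 by region in diabetic dams, 138 by dam in open tissue, 11 by dam in closed tissue and 23 for the interaction with no low-count filter. With DESeq2 these numbers were 37, 9, 33, 47, 199, 2 and 22, and with limma-voom 1 each for region in diabetic dams, dam in open tissue and the interaction. Leaving out 1 library gave 0 to 2, 0 to 3, 0 to 18, 0 to 21, 0 to 61, 0 to 3 and 0 to 9. The 35 genes gave 1 call (Gclc, 9.21, by dam in open tissue with DESeq2) and none under any other alternative.

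The median log2 fold change of the 35 moved by more than the 0.0525 SD between libraries with limma-voom (0.258 by dam, 0.237 by region in diabetic dams, 0.205 by dam in open and 0.241 in closed tissue, 0.208 for the interaction), with library totals (-0.0618 by region, -0.0906 by region in normal dams), and with a mean of at least 50 counts (-0.0558 and -0.0906). Without libraries 10 and 12 it was 0.0747 by region, -0.165 by region in normal dams, 0.375 by dam in open and 0.311 in closed tissue, and 0.211 for the interaction. Leave-one-out ranges were 0.0963 to 0.22 (dam), -0.035 to 0.0983 (region), -0.12 to 0.0257 (region, normal), -0.00848 to 0.117 (region, diabetic), -0.0306 to 0.375 (dam, open), 0.147 to 0.311 (dam, closed) and 0.0409 to 0.344 (interaction). By dam the sign turned for Glrx3 (0.174), Gpx3 (-0.193), Txn1 (-0.087) and Cat (0.409) without libraries 10 and 12, and for Gclm (0.541) and Txn1 (-0.0772) with limma-voom. With 1 library left out it turned by dam for Glrx3 (-0.237 to 0.224), Nfe2l2 (-0.624 to 6.59), Prdx1 (-0.00534 to 0.186), Txnrd1 (-0.186 to 0.216), Gpx3 (-0.126 to 0.257), Txn1 (-0.233 to 0.14), Cat (-1.46 to 0.317) and Hmox1 (-1.14 to 0.109). It also did by region in normal dams for Gclc (0 to 8.37) and Nfe2l2 (0 to 8.93), by dam in open tissue for Gstp1 (0 to 8.5), and in the interaction for Nfe2l2 (-7.98 to 0.951). Where a group then lost its only counted library, the fold became 0 by construction; the cause of the other shifts was not tested. No paired analysis was run, because the labels did not say which open and closed libraries, if any, came from the same embryos. The region tests allow for no such pairing.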
